A study of Mus musculus with 9 samples.

Results

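Kidneys of mice given the sodium salt of beta-hydroxybutyrate (BHB), a ketone body, before bilateral ischemia-reperfusion injury (bIRI) were compared with kidneys of sham-operated mice, both taken 24 hours after reperfusion. The libraries were chosen by their titles alone: BHBNa_bIRI 1, 2 and 3, called BHB plus bIRI here, and Sham 1, 2 and 3, which are 6 of the 9 libraries of the series. The third group of the series, bIRI without pretreatment, entered the fit through its replicates 1 and 3, in the filter on low counts, the scaling and the estimate of the spread, and so also bears on which genes were tested and on the adjusted p-values. It is shown beside some results, without bIRI replicate 2, which held the mean of those libraries, rounded down, in all genes. The labels gave no strain, sex, age, BHB dose, route or interval, and they named no treatment for the sham mice other than the sham operation. Injury and pretreatment therefore differed together between the groups, and their parts cannot be told apart in this comparison. Nor did the labels say whether each library was a separate mouse, so the p-values measure the spread between these libraries, which may be technical.

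Blocking and then restoring the blood supply of the kidney starves the tubules of oxygen and then exposes them to a burst of oxidants. The proximal tubule, which reabsorbs most of the filtered solutes and burns mainly fatty acids to do so, is the segment known to suffer most. BHB is made from fatty acids in mitochondria, serves as a fuel that enters the tricarboxylic acid cycle as acetyl-CoA, activates the receptor HCAR2 and inhibits class I histone deacetylases. Whole kidney RNA was measured here, so fewer cells of a type and less RNA per cell cannot be told apart.

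RNA was captured by its poly(A) tail and counted per gene, with 43206974 to 45909063 reads assigned to genes in each of the 6 libraries. Levels are given as CPM, reads scaled to a common library size by TMM, in counts per 1000000, and a difference is a log2 fold change, BHB plus bIRI minus sham, from edgeR's quasi-likelihood test. A gene was called when its p-value, adjusted over 17967 genes, was under 0.05. Kidney markers were measured in all 6 libraries, with the lowest level of the phosphate transporter Slc34a1 at 552 CPM, of uromodulin (Umod) at 219 CPM and of the water channel Aqp2 at 203 CPM. The root mean square log2 distance between libraries was 0.508 to 0.602 within sham, 0.595 to 0.670 within BHB plus bIRI and 1.35 to 1.56 between the groups. The first principal component of the 6 libraries held 79.6% of their variance and separated the groups. The next component held 6.85%, and on it BHB plus bIRI replicate 3 lay at -51.4 against 26.1 and 28.9 for replicates 1 and 2. Among genes with 1 to 20 reads in a library, 62.2% to 67.5% of the counts were even in these 6 libraries, so counting intervals on small counts may be too narrow. The library bIRI replicate 3 stood apart, with 33477985 reads and 72.8% even counts. Long intergenic noncoding RNAs held 0.57% of its reads, against 0.14% to 0.18% in the 6 libraries. Its values below carry that limit.

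Of the 17967 genes, 7826 were called (43.6%), 3829 of them higher (21.3%) and 3997 lower (22.2%) in BHB plus bIRI. These shares are the background against which each group of genes below is read. The lists were chosen with earlier results of these data known, so their counts describe these data and are not independent tests. The change was at least 2-fold in 2738 of the genes called higher and 2585 of those called lower, and at least 8-fold in 670 and 415. The lowest value of either group lay above the highest value of the other in 11636 genes (64.8%), of which 7762 were also called. Lack of overlap in a called gene named below therefore adds no support of its own. Without sham replicate 1 the genes called higher numbered 2473, and without sham replicate 2 they numbered 2476. The median log2 fold change of all genes was 0.04, with quartiles at -0.68 and 0.78.

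**Figure D1:**
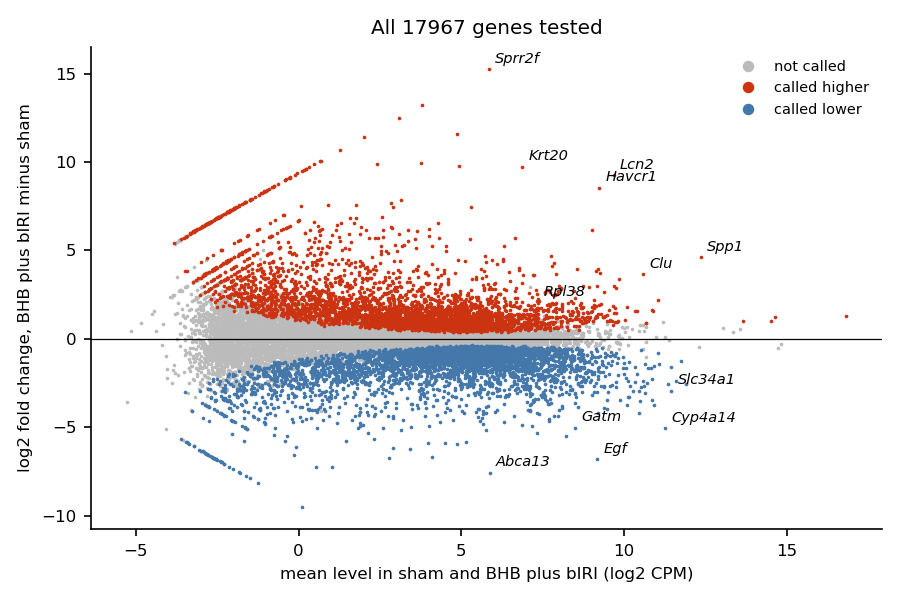
Each point is a gene, with its mean level over the 6 libraries (x axis, log2 CPM) and its log2 fold change between BHB plus bIRI and sham (y axis). Red points were called higher (3829), blue points lower (3997) and grey points not called, and the labels mark genes described in the text.

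Genes that injured tubules are known to switch on were almost all higher. Of 24 tubular injury markers, 22 rose and none fell, with a median log2 fold change of 3.63, and 22 were called higher under each alternative computed. Lcn2 (chr2:32384633-32388252), which encodes the iron-sequestering protein NGAL used as an injury marker, was at 1.96, 2.81 and 3.36 CPM in the sham libraries and at 1488, 1544 and 1884 CPM in BHB plus bIRI. Its log2 fold change was 9.24 (SE 0.47, adjusted p = 1.15e-05). Havcr1 (chr11:46735080-46779578), the gene of the tubular receptor KIM-1 that takes up dying cells, was at 3.23, 1.51 and 4.88 CPM in sham and 1235, 1094 and 1280.1 CPM in BHB plus bIRI (log2 fold change 8.55, SE 0.66, adjusted p = 2.80e-05). For both genes the lowest BHB plus bIRI library lay far above the highest sham library, and the spread inside BHB plus bIRI was small. The intermediate filament gene Krt20 rose from 0.149, 0.183 and 0.491 CPM to 241, 183 and 276 CPM (log2 fold change 9.73, SE 1.13, adjusted p = 0.000200, and 10.42 without sham replicate 3). Spp1, which encodes the secreted phosphoprotein osteopontin, was already abundant in sham at 454, 383 and 389 CPM and reached 10966, 9947 and 9133 CPM, a 24.5-fold rise (adjusted p = 1.26e-05). Clu, the extracellular chaperone clusterin, rose 12.7-fold from 237, 183 and 259 CPM to 3063, 2720.2 and 2804 CPM (adjusted p = 1.57e-05). Timp1, an inhibitor of matrix metalloproteinases, rose from 0.646, 0.365 and 0.310 CPM to 75.9, 62.5 and 96.6 CPM (log2 fold change 7.47, adjusted p = 3.76e-05). Vcam1, an adhesion molecule, rose less, from 9.27, 9.02 and 11.6 CPM to 24.9, 28.8 and 18 CPM, which is 2.40-fold (adjusted p = 0.00815). The 2 injury markers that were not called, Timp2 and Igfbp7, were chosen for mention after their values were seen. Their log2 fold changes were -0.14 (adjusted p = 0.466) and 0.12 (adjusted p = 0.706). In bIRI replicates 1 and 3, Lcn2 was at 2435 and 1000.1 CPM and Havcr1 at 1929 and 534 CPM, on both sides of the BHB plus bIRI values.

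**Figure D2:**
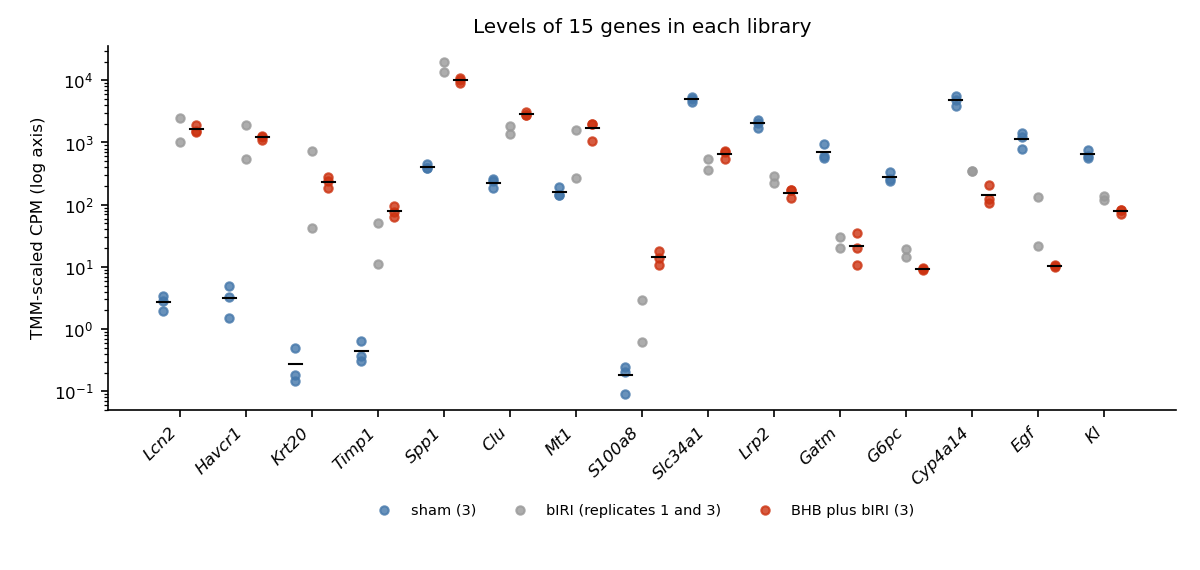
TMM-scaled CPM (y axis, log scale) of 15 genes (x axis) in each library, with sham in blue, bIRI replicates 1 and 3 in grey and BHB plus bIRI in red, and a bar at the mean of sham and of BHB plus bIRI. The 3 BHB plus bIRI points lie apart from the 3 sham points in all 15 genes, above them in the injury genes, Mt1 and S100a8 and below them in the tubular genes. The groups did not overlap in 64.8% of all genes.

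The 12 largest rises among genes with a mean of at least 5 CPM in a group were led by genes that sham kidney barely expressed. Sprr2f (chr3:92365187-92366442), a small proline-rich protein of the envelope that stratified epithelia build, had 0 reads in all 3 sham libraries and stood at 156, 110.0 and 79.5 CPM in BHB plus bIRI. Against a floor of 3 reads per library it was at least 1568-fold higher (edgeR adjusted p = 5.77e-05). Its relative Sprr2g rose from 0.0994, 0 and 0.103 CPM to 78.5, 60.3 and 44.1 CPM (adjusted p = 2.13e-05). The Sprr2 genes are near copies of each other, so the division of reads between them is uncertain. Crct1, another gene of the epidermal gene cluster, had 0 sham reads and 28.2, 22.6 and 32.2 CPM in BHB plus bIRI, at least 376-fold higher (adjusted p = 0.00347, lost without the filter on low counts at adjusted p = 0.0893). Grp, the gastrin-releasing peptide, had 0 sham reads and 30.1, 13.1 and 7.44 CPM, at least 229.6-fold higher (adjusted p = 0.000253). Cuzd1 had 0 sham reads and 5.31, 16.3 and 2.17 CPM, at least 108-fold higher (adjusted p = 0.000631). Vgf, a neuropeptide precursor, had 1 sham read in all and 14.9, 7.02 and 9.92 CPM in BHB plus bIRI, a ratio of 1295 with a counting interval of 232 to 51191 at 95%. Crisp1 had 2 sham reads and was uneven in BHB plus bIRI, at 5.87, 152 and 15.6 CPM, so replicate 2 stood far above the others. The Crisp1 ratio was 3844 with a counting interval of 1064 to 31746, and its fitted log2 fold change went from 11.56 to 9.12 without BHB plus bIRI replicate 2 and 14.28 without sham replicate 1 (adjusted p = 0.000941 with all libraries). The fucosyltransferase gene Fut2 rose from 0.0497, 0.0457 and 0.103 CPM to 5.78, 14 and 22.8 CPM (adjusted p = 4.52e-05).

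The 12 largest falls included transporters, enzymes and a growth factor of the tubule. Egf (chr3:129677565-129755316), the epidermal growth factor precursor made in the distal nephron, fell from 1407, 1223 and 788 CPM in sham to 9.91, 10.2 and 10.9 CPM (log2 fold change -6.79, SE 0.67, adjusted p = 8.42e-05). The 3 BHB plus bIRI libraries were nearly equal, while bIRI replicates 1 and 3 were at 21.5 and 135 CPM. The ABC transporter gene Abca13 fell from 161, 129 and 60.4 CPM to 0.373, 0.926 and 0.543 CPM (log2 fold change -7.55, adjusted p = 0.000204). The amino acid transporters Slc7a12 and Slc7a13 fell by 6.73 and 5.47 on the log2 scale, and Slc7a13 went from 461, 679.8 and 585 CPM to 11.7, 14 and 13.4 CPM (adjusted p = 2.53e-05). Slc7a12 had 15.7, 18.8 and 6.02 CPM in sham and 0 to 0.186 CPM in BHB plus bIRI (adjusted p = 0.00220). Igfbp1, a secreted binder of insulin-like growth factors, fell from 45, 55.5 and 31.6 CPM to 0.793, 0.861 and 0.543 CPM (log2 fold change -5.89, SE 0.38, adjusted p = 1.48e-05). Dpys, dihydropyrimidinase of pyrimidine breakdown, fell from 74.9, 79.4 and 55.1 CPM to 1.12, 1.42 and 1.11 CPM (adjusted p = 0.000128). The log2 fold changes of the other falls were -6.68 for Fam151a, -6.24 for A4gnt, -6.18 for the glucuronosyltransferase Ugt1a10, -5.92 for Ceacam2, -5.86 for Etnppl and -5.65 for Pde6a. Ugt1a10 shares exons with its neighbours in the Ugt1a cluster, so its count is uncertain. The difference of Ugt1a10 was -7.01 without BHB plus bIRI replicate 2, and that of Ceacam2 -6.97 without replicate 3.

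Markers of the proximal tubule fell in every segment list. All 19 markers of the S1 and S2 segments were called lower, against 22.2% of all genes, with a median log2 fold change of -2.52. Gatm, which makes the creatine precursor guanidinoacetate, fell from 937, 612 and 562 CPM to 34.5, 20.2 and 10.6 CPM (log2 fold change -5.02, SE 0.46, adjusted p = 6.08e-05). Pdzk1, a scaffold of apical transporters, fell from 557, 484 and 389 CPM to 28.5, 22.8 and 19.7 CPM, 20.1-fold (adjusted p = 4.97e-05). Lrp2, which encodes the endocytic receptor megalin that retrieves filtered proteins, fell from 2323, 2093 and 1691 CPM to 169, 172 and 126 CPM, 13.1-fold (adjusted p = 1.57e-05). Slc34a1, the main sodium-phosphate cotransporter, fell from 5392, 4424 and 5041 CPM to 719.9, 692 and 552 CPM (log2 fold change -2.92, SE 0.25, adjusted p = 4.17e-05). No BHB plus bIRI library of these 4 genes reached the lowest sham library, and 64.8% of all genes likewise had no overlap between groups. Of 12 markers of the S3 segment, the straight part in the outer medulla, 7 fell, 5 were not called and none rose. Cyp7b1, a steroid hydroxylase, fell from 219, 446 and 512 CPM to 8.58, 11.5 and 31.5 CPM (log2 fold change -4.52, adjusted p = 0.000674, and -5.29 without BHB plus bIRI replicate 3). Slc5a8, a sodium-coupled carrier of lactate and ketone bodies, fell from 252, 260.2 and 250.2 CPM to 13.2, 23.8 and 20.6 CPM, 13.2-fold (adjusted p = 9.05e-05). The mean log2 level of the S3 list was higher in BHB plus bIRI replicate 3 (6.18) than in replicates 1 and 2 (4.97 and 5.51), whereas that of S1 and S2 was lower in it (5.89 against 6.56 and 6.30).

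The distal nephron fell less evenly. In the thick ascending limb, which dilutes the urine, 8 of 12 markers fell and none rose, with a median log2 fold change of -2.04, and 5 fell without the filter on low counts. Slc12a1, the furosemide-sensitive sodium-potassium-chloride cotransporter, fell from 503, 542 and 272 CPM to 25.3, 17.8 and 21.3 CPM (log2 fold change -4.35, SE 0.97, adjusted p = 0.00593, and 0.0577 without the filter on low counts). Umod, the most abundant protein of normal urine, fell from 2394, 2614 and 1417 CPM to 765, 219 and 641 CPM (log2 fold change -1.98, adjusted p = 0.00864). BHB plus bIRI replicate 2 was the lowest library for Umod, and all 3 lay below the lowest sham library. Cldn10, a claudin of the paracellular sodium path, fell from 377, 373 and 361 CPM to 69.9, 46.5 and 57 CPM (adjusted p = 0.00105). In bIRI replicate 3 the list was not low, with a mean log2 level of 7.04 against 6.62 to 7.14 in sham and 4.03 to 4.88 in BHB plus bIRI. In the distal convoluted and connecting tubule, 9 of 11 markers fell and none rose. Calb1, the calcium-binding protein calbindin, fell from 214, 199 and 209.8 CPM to 26.2, 30.7 and 43.6 CPM (log2 fold change -2.63, adjusted p = 3.01e-05). Slc12a3, the thiazide-sensitive cotransporter, fell from 549, 329.8 and 254 CPM to 107, 88.5 and 94.5 CPM (adjusted p = 0.0116, and 0.0744 without the filter on low counts).

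The collecting duct moved in both directions. Of 11 principal cell markers, 3 rose (27.3%) and 4 fell (36.4%). Fxyd4, a regulator of the sodium pump, rose from 25, 43.8 and 37.6 CPM to 209, 146 and 172 CPM, 4.95-fold (adjusted p = 0.000167), while the epithelial sodium channel subunit Scnn1a fell from 128, 116 and 117 CPM to 50.7, 35.8 and 62.2 CPM (adjusted p = 0.00923). Aqp2, the vasopressin-regulated water channel, was at 203, 339 and 265 CPM in sham and 547, 502 and 608 CPM in BHB plus bIRI. Its log2 fold change of 1.04 (adjusted p = 0.0187) was not called with a correction for length and GC content (0.40, adjusted p = 0.394), nor without sham replicate 1 (0.87), sham replicate 3 (1.02) or BHB plus bIRI replicate 3 (0.97). Without sham replicate 1 or without BHB plus bIRI replicate 3, 1 principal cell marker was called higher. Of 12 intercalated cell markers, 6 fell and none rose. The number of intercalated cell markers called lower was 3 without sham replicate 1, 2 without BHB plus bIRI replicate 2 or 3, 1 without the filter on low counts, and 10 without bIRI replicate 1. Slc26a4, the chloride-bicarbonate exchanger pendrin, fell from 104, 82.9 and 91.2 CPM to 30.2, 25.9 and 20.3 CPM (log2 fold change -1.86, SE 0.18, adjusted p = 8.10e-05). Slc4a1, the anion exchanger of acid-secreting cells and of red cells, fell from 112, 94.5 and 80.5 CPM to 6.81, 2.80 and 5.65 CPM (adjusted p = 0.00776, and 0.0699 without the filter on low counts).

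Glomerular and vascular markers changed in few members. Of 12 podocyte markers, 2 rose and 1 fell. Cdkn1c, a cell cycle inhibitor of mature podocytes, rose from 14.2, 15.9 and 27.7 CPM to 80.7, 92.2 and 133 CPM, 5.30-fold (adjusted p = 0.000903). The other rise, of the phospholipase gene Plce1, was smaller (log2 fold change 0.90, adjusted p = 0.00384). The podocyte marker called lower, Magi2 (log2 fold change -0.91), was not called without sham replicate 1 or without BHB plus bIRI replicate 1 or 3 (adjusted p = 0.0763, 0.0584 and 0.0576), nor with the correction for length and GC content (adjusted p = 0.0697). Without bIRI replicate 1 or 3, 3 podocyte markers were called lower. Of 12 endothelial markers, 3 rose and 1 fell. Egfl7, a secreted endothelial protein, rose from 26.2, 30.2 and 34 CPM to 67.5, 79.9 and 97.3 CPM (log2 fold change 1.44, SE 0.23, adjusted p = 0.00118). The other endothelial calls depended on single libraries. Emcn, the sialomucin endomucin, had a log2 fold change of 0.72 (adjusted p = 0.0378) and was not called without any 1 of sham replicates 1, 2 and 3 and BHB plus bIRI replicates 2 and 3, at 0.53 to 0.81. Esam, a junction molecule, had 0.99 (adjusted p = 0.0284) and was not called without sham replicate 1 or 3 or BHB plus bIRI replicate 2 or 3, at 0.76 to 1.02. Kdr, the receptor of VEGF-A, had -1.03 (adjusted p = 0.0251) and was not called without sham replicate 1 or 2 or BHB plus bIRI replicate 1 or 3, at -1.03 to -0.89, nor with the correction for length and GC content (-0.71). The count of endothelial rises was 1 without sham replicate 1 or 3 or BHB plus bIRI replicate 2 or 3.

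**Figure D3:**
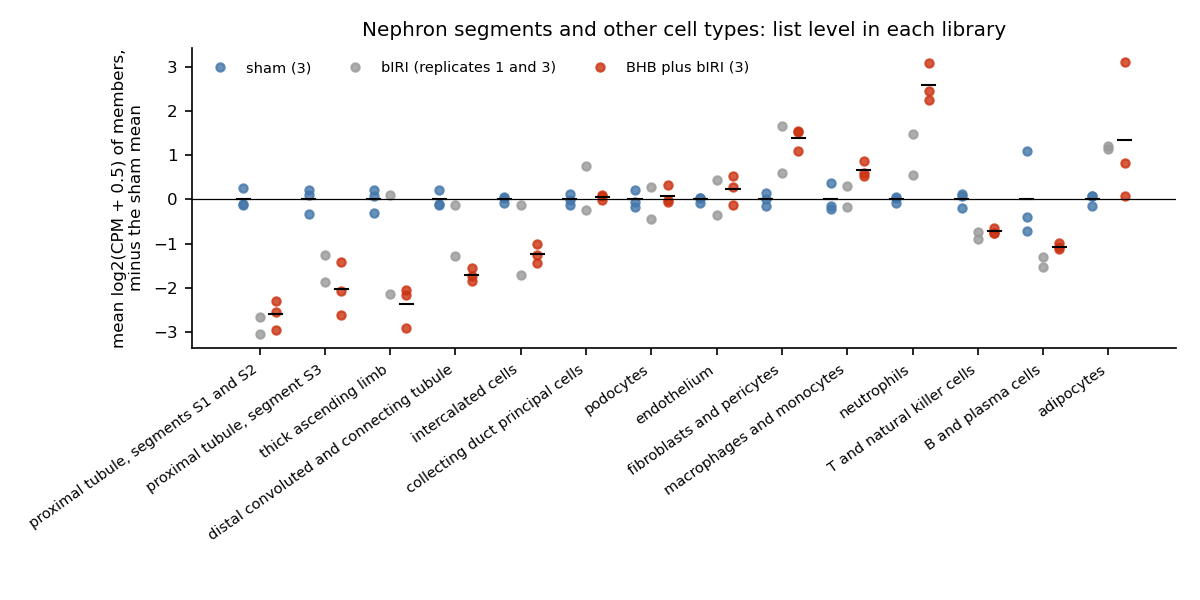
Mean log2(CPM + 0.5) of the tested members of each cell type list (x axis) in each library, minus the mean of the 3 sham libraries (y axis). The 3 BHB plus bIRI points (red) lie below the sham points (blue) in the proximal, thick ascending limb, distal and intercalated lists and above them for neutrophils, and bIRI replicates 1 and 3 (grey) lie far apart in the thick ascending limb and distal lists.

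Fuel metabolism fell across pathways. Of 28 genes of fatty acid oxidation, 26 fell, none rose and 2 were not called (median log2 fold change -1.99, against 0.04 over all genes). Across the alternatives 22 to 27 of them were called lower, the 22 being those past both the threshold and a 2-fold change. Ehhadh, the bifunctional enzyme of peroxisomal oxidation, fell from 4187, 3881 and 2699.7 CPM to 186, 369 and 258 CPM (log2 fold change -3.73, SE 0.37, adjusted p = 8.62e-05). Acadvl, which starts the mitochondrial breakdown of very long chains, fell from 290.5, 258 and 173 CPM to 18.2, 20.7 and 22.5 CPM, 11.7-fold (adjusted p = 2.30e-05). Acsl1, which activates fatty acids as their CoA esters, fell from 818, 707 and 424 CPM to 82.2, 85.2 and 56.6 CPM, 8.70-fold (adjusted p = 5.93e-05). In bIRI replicates 1 and 3 Acadvl stood at 63 and 99 CPM, between the groups. Of 24 genes of the tricarboxylic acid cycle and pyruvate entry, 22 fell and none rose (median -1.24). Pcx, pyruvate carboxylase, fell from 1105, 846 and 906 CPM to 103, 123 and 134 CPM, 7.95-fold (adjusted p = 1.66e-05). Sirt3, the mitochondrial deacetylase that activates many of these enzymes, fell from 68.3, 64 and 63.4 CPM to 11.9, 10.3 and 10.9 CPM (log2 fold change -2.56, SE 0.25, adjusted p = 8.31e-05). All 21 genes of amino acid catabolism fell (median -2.25), among them Hpd, of tyrosine breakdown, from 98.8, 89 and 73.9 CPM to 5.45, 4.41 and 6.85 CPM (adjusted p = 3.76e-05) and Bckdha, of branched-chain keto acid oxidation, from 115, 98.1 and 88 CPM to 6.78, 6.76 and 7.42 CPM (adjusted p = 1.15e-05). Of 12 genes of NAD synthesis 9 fell and none rose, led by Afmid, kynurenine formamidase, from 22.7, 17.3 and 21.6 CPM to 1.28, 2.05 and 1.55 CPM (adjusted p = 1.75e-05).

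Most genes of ketone body metabolism fell, but not the carriers Slc16a1 and Slc16a6 or the receptor Hcar2. Of 10 genes of ketone body metabolism and sensing, 7 fell and 2 rose. In bIRI without pretreatment 7 were also called lower and 2 higher than sham, and none was called between BHB plus bIRI and bIRI. Bdh1, which interconverts BHB and acetoacetate, fell from 142, 241 and 175 CPM to 25.1, 20.8 and 35.8 CPM (log2 fold change -2.77, SE 0.32, adjusted p = 0.000185). Oxct1, which commits ketone bodies to oxidation, fell from 926, 1041 and 909 CPM to 229.7, 241 and 318 CPM, 3.65-fold (adjusted p = 0.000210). In both genes the highest BHB plus bIRI library was replicate 3, and it stayed below every sham library. Slc16a1, the monocarboxylate carrier MCT1 that moves BHB across membranes, was at 58.3, 47 and 56 CPM in sham and 81.5, 80.4 and 65.5 CPM in BHB plus bIRI and was not called (log2 fold change 0.50, SE 0.42, adjusted p = 0.368). It was called when bIRI replicate 1 or 3 was left out of the fit (0.48 and 0.49, adjusted p = 0.0124 and 0.00998). Slc16a6, a carrier linked to the release of BHB from liver, was named after its values were seen. It rose slightly (log2 fold change 0.78, adjusted p = 0.0106), a call lost without sham replicate 2 (0.65, adjusted p = 0.0612). Hcar2, the BHB receptor, was low throughout, at 0.199, 0.160 and 0.258 CPM in sham, and rose to 2.05, 1.29 and 0.543 CPM (log2 fold change 2.65, SE 0.64, adjusted p = 0.00881). Hdac1, a class I histone deacetylase, was at 54.7, 53.6 and 50.4 CPM and 49.5, 56.8 and 50.6 CPM (log2 fold change -0.02, SE 0.14, adjusted p = 0.934). Foxo3 and Mt2 are oxidant defence genes known to respond to deacetylase inhibition by BHB. Foxo3 fell from 63.1, 61.5 and 55.2 CPM to 34.2, 33.9 and 30.5 CPM (log2 fold change -0.87, adjusted p = 0.00503), and Mt2 rose from 0.0248, 0.0457 and 0.207 CPM to 3.71, 3.17 and 3.86 CPM (log2 fold change 5.26, adjusted p = 0.00141). The Mt2 difference was 6.53 without sham replicate 3 and 4.52 with the correction for length and GC content. Of 6 metallothioneins and zinc transporters, 3 were also called higher in bIRI without pretreatment than in sham. None was called between BHB plus bIRI and bIRI. The part of BHB in the changes of Foxo3 and Mt2 was not tested.

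Most genes of glucose synthesis fell, and glycolysis as a list stood near the background. Of 6 genes of gluconeogenesis, a pathway that kidney shares with liver, 5 fell and 1 rose. G6pc, glucose-6-phosphatase, which releases free glucose, fell from 334, 262 and 239.6 CPM to 9.11, 9.67 and 8.80 CPM (log2 fold change -4.92, SE 0.22, adjusted p = 9.96e-06). Fbp1, fructose-1,6-bisphosphatase of the same tubule cells, fell from 1461, 1355 and 1161 CPM to 84.4, 83.5 and 83.4 CPM (adjusted p = 1.26e-05), and the gene that rose, its muscle counterpart Fbp2, went from 28.6, 25 and 19.6 CPM to 80.5, 69.5 and 51.6 CPM (log2 fold change 1.46, adjusted p = 0.0159). Fbp2 was named after its values were seen, and it was not called without sham replicate 2 or 3 or BHB plus bIRI replicate 1, at 1.31 to 1.46. Of 17 glycolytic genes, 5 rose (29.4%) and 4 fell (23.5%), close to the 21.3% and 22.2% of all genes, with a median log2 fold change of -0.03. The inducible hexokinase Hk2 rose from 0.845, 0.342 and 0.956 CPM to 7.20, 11 and 9.26 CPM, 12.8-fold (adjusted p = 0.000198). Slc16a3, the lactate exporter MCT4, rose from 0.845, 1.0 and 1.27 CPM to 9.35, 13.8 and 11.8 CPM, 11.2-fold (adjusted p = 0.000184). Pfkm, the muscle type of phosphofructokinase, fell from 73.1, 66.8 and 57.5 CPM to 16.7, 15.7 and 14.2 CPM, 4.23-fold (adjusted p = 0.000564). Hif1a, the oxygen-regulated factor that drives several of these genes, was not called at the RNA level (log2 fold change 0.42, SE 0.24, adjusted p = 0.186).

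Most genes of the lists of cytochrome P450, of phosphate, klotho and vitamin D handling and of cholesterol synthesis fell as well. The sodium pump list stood near the background. Of the 12 cytochrome P450 genes listed 10 fell and 1 rose. Of all 49 tested by symbol, 24 fell and 4 rose (median log2 fold change -1.23). Cyp4a14, a fatty acid hydroxylase under PPAR-alpha, fell from 5587, 4862 and 3820.3 CPM to 106, 204 and 122 CPM (log2 fold change -5.04, SE 0.33, adjusted p = 1.57e-05). It has close copies in its gene cluster, so its count is uncertain. Cyp24a1, which breaks down active vitamin D, rose from 9.59, 7.79 and 19.4 CPM to 119, 59 and 96.8 CPM, 7.48-fold (adjusted p = 0.000352). Kl, the hormone and FGF23 co-receptor klotho, fell from 760.0, 607 and 571 CPM to 81, 82.9 and 71 CPM, 8.25-fold (adjusted p = 1.48e-05). In all, 6 of 10 genes of phosphate, klotho and vitamin D handling fell and 2 rose, the other rise being the phosphate transporter Slc20a1 (log2 fold change 0.97, adjusted p = 0.00136), named after its values were seen. Of 18 genes of cholesterol synthesis, 17 fell and none rose (median -1.55). Idi1, isopentenyl diphosphate isomerase, fell from 60.6, 39.3 and 29 CPM to 2.73, 2.99 and 1.49 CPM, 17.8-fold (adjusted p = 7.96e-05). Insig1, a sterol sensor of the same pathway, fell from 333, 235 and 214 CPM to 20.7, 20.3 and 19.8 CPM, 12.9-fold (adjusted p = 2.86e-05). Sham replicate 1 was the highest library for both genes, and all BHB plus bIRI libraries lay below all sham libraries. Of 7 genes of the sodium pump and its regulators, 2 fell (28.6%) and 1 rose (14.3%), against 22.2% and 21.3% of all genes. The median log2 fold change of the list was -0.20, and 3 rose without bIRI replicate 3. The beta subunit gene Atp1b1 fell from 1965, 1844 and 1407 CPM to 357, 460.3 and 328 CPM (adjusted p = 0.000913) and the regulator Fxyd5 rose from 9.29, 9.43 and 13.6 CPM to 82.5, 76.6 and 113 CPM (adjusted p = 2.65e-05).

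The respiratory chain did not move as a block. Of 79 nuclear genes for complexes I to V, 5 rose and 20 fell, with a median log2 fold change of 0.08. Complex II, which is also an enzyme of the tricarboxylic acid cycle, was lower in all 4 subunits. Its catalytic subunit gene Sdha fell from 989, 1004 and 874 CPM to 224, 221 and 217 CPM (log2 fold change -2.12, SE 0.18, adjusted p = 4.51e-05). In complex I 4 of 36 subunits rose and 6 fell. Ndufs1, its largest iron-sulfur subunit, fell from 287, 261 and 224 CPM to 73.2, 66.9 and 55.8 CPM (adjusted p = 6.69e-05), while the accessory subunit Ndufb7 was at 94.3, 99.9 and 154 CPM in sham and 249, 179 and 334 CPM in BHB plus bIRI (adjusted p = 0.00810). The count in complex III and cytochrome c was 1 higher and 4 lower of 10, in complex IV 0 and 2 of 13, and in complex V 0 and 4 of 16. Uqcrc2, a core subunit of complex III, fell from 599, 587 and 524 CPM to 169, 164 and 149 CPM (adjusted p = 7.32e-05), and Atp5b, the catalytic subunit of ATP synthase, fell from 4439, 4234 and 3901 CPM to 1463, 1261 and 1515 CPM (adjusted p = 0.000399).

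These counts changed with a correction for transcript length. The nuclear genes for complexes I to V have a median transcript length of 908 bases against 2760 over all genes, and the log2 fold change fell with length over the 12390 genes whose mean log2 CPM exceeded 1 (Spearman's rho -0.185, across genes, which are not independent replicates). With a correction for length and GC content 2 of the 79 genes of nuclear oxidative phosphorylation, complexes I to V, were higher and 39 lower, and their median was -0.43. Ndufb7 was then at a log2 fold change of 0.22 (adjusted p = 0.319) and no longer called. In the same correction 13 subunits of complex I, 10 of complex IV and 8 of complex V were lower. The number of nuclear genes called higher was 1 without sham replicate 1 or 2 or BHB plus bIRI replicate 1 or 3, 9 without sham replicate 3 or BHB plus bIRI replicate 2, and 11 without bIRI replicate 1 or 3. In complex III and cytochrome c, 2 were lower without sham replicate 2 or 3 or BHB plus bIRI replicate 1 or 2. In complex IV, 1 was lower without sham replicate 1 or 2 or BHB plus bIRI replicate 1 or 2, and 4 were lower without bIRI replicate 1 or 3. In complex I, 1 was higher without sham replicate 1 or 2 or BHB plus bIRI replicate 1 or 3. The part of length in these results was not tested.

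Transcripts made inside mitochondria took a larger share of the reads. The transcripts of the mitochondrial genome together held 11.2% to 13.3% of the counts in sham and 24.0% to 30.3% in BHB plus bIRI, against 15.9% in both bIRI libraries. The transcript mt-Co1 alone, for a core subunit of cytochrome oxidase, held 5.94% to 6.78% in sham and 13.4% to 17.0% in BHB plus bIRI. Of 13 mitochondrially encoded proteins, 9 rose and none fell (median log2 fold change 1.23). The largest change was in mt-Co2, from 77.5, 116 and 143 CPM to 655, 455 and 1446 CPM (log2 fold change 2.92, SE 0.57, adjusted p = 0.00321). The count of 9 fell to 2 without sham replicate 1, 1 without sham replicate 2, 3 without BHB plus bIRI replicate 3, and 2 with the correction for length and GC content. The mt-Co2 difference was 2.31 without BHB plus bIRI replicate 3, its highest library, and 2.24 with that correction, and the labels give no measure of RNA quality. The nuclear genes that drive mitochondrial gene expression and biogenesis went the other way. Of 12 such genes 9 fell and none rose. Ppargc1b, a coactivator of this program, fell from 6.68, 5.14 and 4.70 CPM to 1.93, 2.0 and 1.47 CPM (log2 fold change -1.61, adjusted p = 0.00349). Its relative Ppargc1a was at 36.6, 40.6 and 30.7 CPM in sham and 14.1, 12.8 and 11.9 CPM in BHB plus bIRI (log2 fold change -1.48, adjusted p = 0.0184). That call was lost on leaving out sham replicate 1 or 2 or any BHB plus bIRI library (adjusted p 0.0508 to 0.0698), with values from -1.54 to -1.40.

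Genes of the cytosolic ribosome were higher nearly throughout. Of 45 cytosolic ribosomal proteins, 38 rose and none fell, against 21.3% of all genes higher, with a median log2 fold change of 1.32. Rpl38, a small protein of the large subunit, rose from 53.2, 61.7 and 74.3 CPM to 283, 188 and 315 CPM (log2 fold change 2.05, SE 0.26, adjusted p = 0.000308). Rps28, of the small subunit, rose from 48.8, 54.6 and 64.2 CPM to 209, 156 and 256 CPM (log2 fold change 1.89, adjusted p = 0.000175). BHB plus bIRI replicate 2 was the lowest of its group for both genes and still lay above all sham libraries. The mean log2 level of the list was 7.94 to 8.30 in sham, and 9.10 to 9.59 in BHB plus bIRI, while bIRI replicates 1 and 3 stood at 8.56 and 7.60. With the correction for length and GC content 37 were higher, the differences of Rpl38 and Rps28 were 1.03 and 0.96, and without sham replicate 1 the count was 26. Ribosomal protein genes have many processed copies in the genome, so reads may be divided between them. Of 25 proteasome subunits, 8 rose and 2 fell. Psmb6, a catalytic subunit, rose from 112, 122 and 158 CPM to 327, 247 and 361 CPM (log2 fold change 1.25, adjusted p = 0.00633, and 0.66 with the correction for length and GC content). The 2 that fell, Psmd1 of the regulatory cap and the catalytic subunit Psmb7, were named after their values were seen, at log2 fold changes of -0.88 and -0.50 (adjusted p = 0.00328 and 0.0398). The call of Psmb7 was lost without sham replicate 1 or 3 or BHB plus bIRI replicate 2 or 3, at -0.50 to -0.41. The count of 8 was 2 without sham replicate 1, 3 without sham replicate 2, 4 without BHB plus bIRI replicate 1, 15 without bIRI replicate 1 and 16 without bIRI replicate 3.

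**Figure D4:**
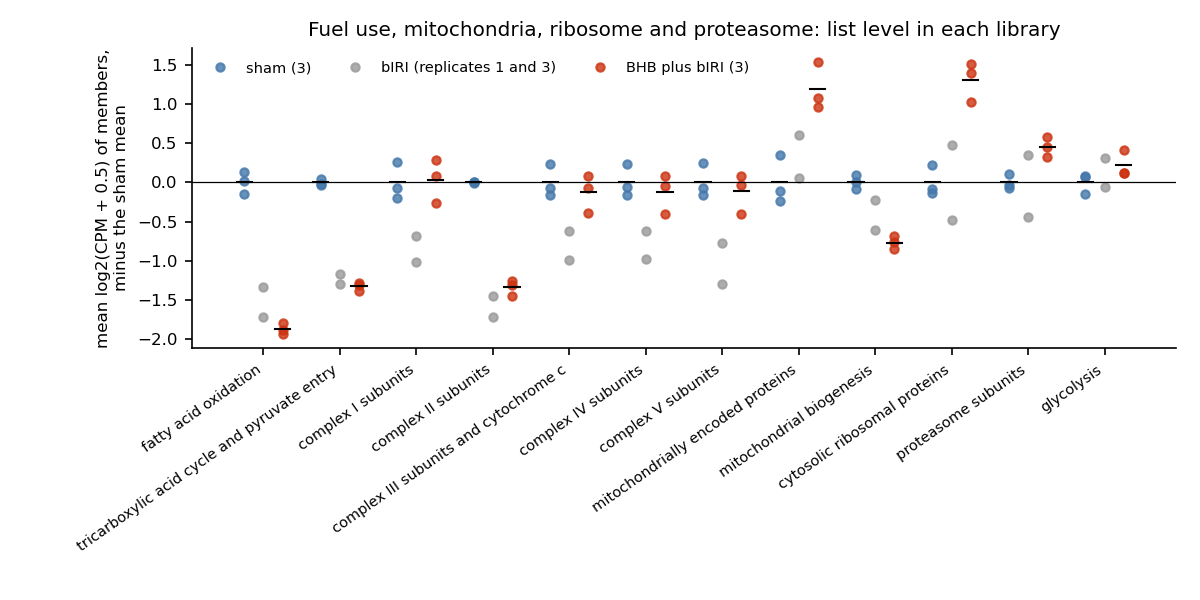
Mean log2(CPM + 0.5) of the tested members of 12 lists of fuel use, mitochondria, ribosome and proteasome (x axis) in each library, minus the sham mean (y axis). BHB plus bIRI libraries (red) lie below sham (blue) for fatty acid oxidation, the tricarboxylic acid cycle, complex II and biogenesis, near the sham libraries for complexes I, III, IV and V, and above them for mitochondrially encoded and ribosomal proteins.

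Most inflammatory signals were higher. Of 21 cytokines and chemokines, 14 rose and none fell (median log2 fold change 2.95). The summed level of the list was 194, 179 and 199.6 CPM in sham and 448, 390.3 and 464 CPM in BHB plus bIRI. Its most abundant members in BHB plus bIRI were Cx3cl1, which was not called, and Il34, Cxcl16 and Csf1, which rose, all named after their values were seen. The cytokines with the largest changes were much lower in level, and those near 0 in sham could hardly have been called lower. Ccl2, which recruits monocytes, rose from 0.447, 0.365 and 0.620 CPM to 7.16, 12.5 and 3.26 CPM (log2 fold change 4.0, SE 0.53, adjusted p = 0.000409). Ccl7, another monocyte attractant, rose from 0.0497, 0.0913 and 0.103 CPM to 3.40, 8.05 and 2.45 CPM (log2 fold change 5.78, adjusted p = 0.000115, and 5.12 without BHB plus bIRI replicate 2). Cxcl2, a neutrophil attractant, had 3 reads in all in sham and 4.13, 3.04 and 0.951 CPM in BHB plus bIRI, a ratio of 114 with a counting interval of 38.9 to 558 (edgeR adjusted p = 0.000314). Il6, interleukin 6, had 2 reads in sham and 0.699, 1.77 and 1.17 CPM in BHB plus bIRI, a ratio of 75.4 with an interval of 20.5 to 628 (edgeR adjusted p = 0.0102). Csf3, the granulocyte growth factor G-CSF, had 1 read in sham and 0.909, 1.29 and 0.951 CPM in BHB plus bIRI (edgeR adjusted p = 0.000668). Tnf was at 0.0497, 0.0913 and 0.258 CPM and 1.12, 0.560 and 0.435 CPM (log2 fold change 2.39, adjusted p = 0.0192), and its call was lost without sham replicate 1 or 2 or BHB plus bIRI replicate 1, at values from 1.90 to 2.17, while it was 3.26 without sham replicate 3. The inflammasome genes Il1b, Il18 and Nlrp3 were not called. Il1b was at 0.944, 0.822 and 3.07 CPM in sham and 5.18, 4.78 and 2.20 CPM in BHB plus bIRI, with overlapping groups (log2 fold change 1.33, SE 0.54, adjusted p = 0.0711). Sham replicate 3 was its highest sham library, and without it the difference was 2.19 (adjusted p = 0.00909). DESeq2 called it with all libraries (adjusted p = 0.0324). Il18 had a log2 fold change of 0.76 (SE 0.42, adjusted p = 0.168) and Nlrp3 of -0.12 (SE 0.51, adjusted p = 0.865).

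NF-kappa-B, the factor that activates many of these genes, also acts on its own subunits and inhibitors. Of 12 subunits and feedback genes, 6 rose and 1 fell, and 10 rose without bIRI replicate 3. The gene that fell, the feedback inhibitor Tnfaip3, was named after its values were seen. Its log2 fold change of -0.66 (adjusted p = 0.0442) was not called when any sham or BHB plus bIRI library was left out, at -0.77 to -0.51. Nfkbiz, a nuclear regulator of the family, rose from 3.26, 5.94 and 4.94 CPM to 38.6, 34.1 and 25.3 CPM (log2 fold change 2.79, adjusted p = 7.82e-05), and the subunit gene Nfkb2 rose from 19.8, 18.7 and 20.1 CPM to 83.2, 59.8 and 86.4 CPM (log2 fold change 1.97, adjusted p = 0.000115). The 250 bases before the start sites of Cxcl2 and Il6 are shown because both genes were near 0 in sham and both windows hold the letters GGG, any 2 bases and TTTCC, a match to the NF-kappa-B site, here in capitals. The sequences come from RefSeq on GRCm38.p6, both lie on the + strand, and the motif was chosen after the expression values were seen.
Cxcl2, chr5:90903649-90903898: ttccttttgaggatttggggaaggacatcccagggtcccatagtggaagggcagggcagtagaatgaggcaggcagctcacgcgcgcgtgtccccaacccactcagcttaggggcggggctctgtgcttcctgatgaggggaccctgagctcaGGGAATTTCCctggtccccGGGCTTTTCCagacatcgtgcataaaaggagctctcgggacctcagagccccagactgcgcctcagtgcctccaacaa
Il6, chr5:30012864-30013113: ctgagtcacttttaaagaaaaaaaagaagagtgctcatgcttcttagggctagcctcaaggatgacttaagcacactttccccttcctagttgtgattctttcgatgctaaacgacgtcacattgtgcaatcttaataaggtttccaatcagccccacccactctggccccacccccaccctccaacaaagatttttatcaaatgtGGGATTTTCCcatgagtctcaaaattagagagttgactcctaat
Cxcl2 holds GGGAATTTCC at 97 to 88 and GGGCTTTTCC at 78 to 69 bases before the start, and Il6 holds GGGATTTTCC at 44 to 35. A match on either strand was found in 464 of 32851 windows of the same length (1.41%). It was found in 5 of the 15 cytokine and chemokine genes with a window and in 4 of the 9 NF-kappa-B genes with a window, Nfkb2, Nfkbia, Rel and Tnfaip3, the last of which was called lower. Among the other genes named here it was found before Sdhb, a subunit of complex II, and before Slc12a1, both called lower. These are counts of letters, with no measured binding.

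Neutrophil genes rose with the chemokines. Of 8 neutrophil markers tested, 7 rose and none fell. Among the 13 listed, Ly6g, Mpo, Camp and Ngp were too low to be tested, and Elane was not among the genes counted. With summed sham levels of 1.94 to 2.66 CPM, a fall could hardly have been called. Some members may have passed the filter on low counts only through injured libraries, so the count was not a test. S100a8, a subunit of calprotectin, rose from 0.248, 0.0913 and 0.207 CPM to 10.7, 18.3 and 14 CPM (log2 fold change 6.29, SE 0.65, adjusted p = 0.000109, and 5.68 with the correction for length and GC content). Its partner S100a9 rose from 0.199, 0.0457 and 0.594 CPM to 15.4, 26.1 and 18.7 CPM, and Retnlg, a neutrophil resistin-like gene, from 0.0497, 0.0913 and 0 CPM to 2.77, 6.11 and 5.57 CPM (adjusted p = 0.000126 and 0.000258). BHB plus bIRI replicate 2 was the highest library for all 3 genes, and the summed level of the list was 42.4, 75.8 and 48.7 CPM in BHB plus bIRI against 1.94 to 2.66 CPM in sham. Of 16 macrophage and monocyte markers, 7 rose and 2 fell. Cd68, a lysosomal protein of phagocytes, rose from 3.21, 3.74 and 5.89 CPM to 37, 35.3 and 60.2 CPM (log2 fold change 3.37, adjusted p = 9.76e-05), and the endotoxin co-receptor Cd14 rose from 8.60, 9.63 and 12.2 CPM to 67.9, 65.6 and 70.9 CPM (adjusted p = 0.000462). The 2 that fell, Cd74 and Csf1r, were named after their values were seen. They had log2 fold changes of -1.85 and -1.35 (adjusted p = 0.00102 and 0.00212). The macrophage count was 4 higher without sham replicate 1 or without BHB plus bIRI replicate 2, and 4 lower without bIRI replicate 1 or 3. Of 12 T and natural killer cell markers, 4 fell and none rose, and 8 fell without bIRI replicate 1 or 3. Il2rb, a receptor chain for interleukins 2 and 15, fell from 2.66, 1.39 and 2.76 CPM to 0.186, 0.129 and 0.109 CPM (adjusted p = 0.000316).

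Some cell type counts rested on a library that stood apart. Of 8 B and plasma cell markers 5 were called lower, but sham replicate 3 was far above the other sham libraries, with a summed level of 252 CPM against 26.9 and 17.4 CPM. Without it 1 was called lower. The count was also 1 without BHB plus bIRI replicate 2 or 3, and 2 without BHB plus bIRI replicate 1 or bIRI replicate 1 or 3, and without the filter on low counts none was called. Of 6 erythroid markers 4 were called lower, with summed levels of 295, 137 and 297 CPM in sham and 31.7, 56 and 53.5 CPM in BHB plus bIRI, and 1 was called lower without the filter on low counts. Of 5 adipocyte markers 4 were called higher, and BHB plus bIRI replicate 2 carried them, at a summed level of 74.2 CPM against 5.36 and 15.7 CPM in replicates 1 and 3 and 3.25 to 4.52 CPM in sham. Cfd, the adipocyte protease adipsin, was at 0.0932, 49.8 and 0.435 CPM in BHB plus bIRI and 0.149, 0.274 and 0.413 CPM in sham. Its log2 fold change was 5.90 with replicate 2 and -0.09 without it, and the adipocyte count without it was 1. That count was also 1 without any 1 of the sham libraries or without the filter on low counts, and 2 without bIRI replicate 1 or 3. Crisp1, listed above among the largest rises, and the plasma protein gene Hp were also highest in that library, Hp at 6.85, 81.3 and 6.66 CPM. The difference of Hp was 6.19 with replicate 2 and 3.96 without it. The part of adipocyte RNA in these results was not tested.

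Acute phase, oxidant defence and metal-binding genes were mixed. Of 14 complement and acute phase genes, 8 rose and 3 fell, and the log2 fold changes of the list ran from -4.925 to 9.013. Saa3, an acute phase apolipoprotein, had 2 reads in sham and 2.52, 5.94 and 2.55 CPM in BHB plus bIRI, a ratio of 233 with a counting interval of 64 to 1926. Saa1 had 0 reads in sham and 0.373, 1.79 and 2.39 CPM, at least 20.6-fold higher (edgeR adjusted p = 0.00155). Of 18 NRF2 and antioxidant genes, 5 rose and 6 fell. Cat, peroxisomal catalase, fell from 2168, 1929 and 1856 CPM to 312, 344 and 303 CPM, 6.21-fold (adjusted p = 2.26e-05). Sod2, the mitochondrial superoxide dismutase, fell from 391, 395 and 426 CPM to 189, 177 and 207 CPM (log2 fold change -1.08, adjusted p = 0.000694). Slc7a11, which imports cystine for glutathione, rose from 0.447, 0.0457 and 0.155 CPM to 3.40, 2.35 and 1.14 CPM (log2 fold change 3.41, adjusted p = 0.0102, and 4.50 without sham replicate 1). Gpx4, the lipid peroxidase that guards against ferroptosis, was at 896, 982 and 1225 CPM and 751, 718 and 1050.0 CPM and was not called (log2 fold change -0.30, SE 0.27, adjusted p = 0.386). With the correction for length and GC content it had a log2 fold change of -0.99 and was called (adjusted p = 0.000622). Of 6 metallothioneins and zinc transporters 3 rose and 1 fell, the zinc exporter Slc30a1 (log2 fold change -0.57, adjusted p = 0.0107, -0.48 with adjusted p = 0.0619 without sham replicate 2, and -0.26 with adjusted p = 0.17 with the correction for length and GC content). Mt1, the metal-binding partner of Mt2, rose from 141, 142 and 195 CPM to 1995, 1049 and 2002 CPM, and replicate 2 was the lowest of its group (log2 fold change 3.40, adjusted p = 0.00160). Among 13 genes of iron handling and ferroptosis 4 rose and 4 fell, and among 15 interferon-stimulated genes 4 rose and 1 fell. Ncoa4, which delivers ferritin for breakdown, fell from 77.4, 64.8 and 50.5 CPM to 8.14, 11.6 and 12.6 CPM (adjusted p = 0.000111), and Isg15, a ubiquitin-like interferon target, rose from 2.26, 2.81 and 4.32 CPM to 16.7, 10.9 and 8.97 CPM (adjusted p = 0.00176). The interferon-stimulated gene that fell was the antiviral enzyme Rsad2 (log2 fold change -1.14, adjusted p = 0.00435).

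Stress and early response genes rose in part. Of 14 immediate early and AP-1 genes 7 rose and 1 fell. The fall, of the small Maf gene Mafk, was slight (log2 fold change -0.42, adjusted p = 0.0395), and it was not called when any sham or BHB plus bIRI library was left out, at -0.47 to -0.37. Without sham replicate 1, 2 other genes were called lower, Fos and Egr1, both named after their values were seen. Fos was at 3.23, 23.9 and 22.8 CPM in sham and 12.3, 15.6 and 10.7 CPM in BHB plus bIRI (log2 fold change -0.37, adjusted p = 0.611, and -0.86 with adjusted p = 0.0185 without that library). Egr1 was at 18.1 CPM in sham replicate 1, at 76.0 CPM in replicate 3 and higher still in replicate 2, and at 44.1, 47 and 29.6 CPM in BHB plus bIRI (log2 fold change -0.68, adjusted p = 0.297, and -1.13 with adjusted p = 0.0228 without it). In both genes sham replicate 1 lay far below the other sham libraries and below all BHB plus bIRI libraries. Fosl1, a late AP-1 subunit, rose from 0.0745, 0 and 0.0517 CPM to 4.62, 2.0 and 2.99 CPM (log2 fold change 6.19, SE 0.79, adjusted p = 0.000342, 6.87 without sham replicate 1 and 5.58 without sham replicate 2), and Klf6 rose from 21.1, 22.9 and 27.7 CPM to 114, 105 and 70.6 CPM (adjusted p = 0.000343). Sham replicate 1 had the lowest mean log2 level of this list, 3.19 against 4.19 and 4.30 in the other sham libraries. Of 16 p53 targets 8 rose and 1 fell, the stress gene Sesn1 (log2 fold change -1.11, adjusted p = 0.00796). Cdkn1a, the cell cycle inhibitor p21, rose from 5.09, 5.11 and 4.96 CPM to 99.7, 80.9 and 125 CPM (log2 fold change 4.33, SE 0.54, adjusted p = 0.000291). Of 13 heat shock chaperones 7 rose and 1 fell, Hspd1, which encodes the mitochondrial chaperonin HSP60 (log2 fold change -1.07, adjusted p = 0.00118). Mafk, Sesn1 and Hspd1 were named after their values were seen. Hspb1, a small heat shock protein, rose from 9.29, 12.1 and 16.8 CPM to 199, 143 and 274 CPM, 16.1-fold (adjusted p = 0.000549), which is a log2 fold change of 4.01, against 3.21 with the correction for length and GC content. Of 16 genes of the unfolded protein and integrated stress response 7 rose and 1 fell, and the count of rises was 4 without sham replicate 1 or 3 or BHB plus bIRI replicate 1, and 3 without sham replicate 2 or BHB plus bIRI replicate 3. Herpud1, which clears misfolded proteins from the endoplasmic reticulum, fell from 387, 393 and 418 CPM to 84.3, 81.7 and 79.3 CPM (log2 fold change -2.29, SE 0.17, adjusted p = 2.13e-05).

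Most of the listed genes of replication and of the matrix were higher. Of 28 cell cycle and replication genes, 19 rose and 1 fell (median log2 fold change 1.39). Cdk1, the kinase that starts mitosis, rose from 1.09, 0.731 and 1.47 CPM to 10.4, 9.19 and 6.0 CPM (log2 fold change 2.96, SE 0.35, adjusted p = 0.000226). Mcm3, of the helicase that opens DNA for replication, rose from 4.55, 4.77 and 6.25 CPM to 36.4, 30.7 and 27.1 CPM, and Mcm5 of the same complex from 5.12, 5.02 and 4.86 CPM to 27.9, 21.3 and 22.6 CPM (adjusted p = 3.95e-05 and 6.56e-05). The gene that fell, Ccnd1, the cyclin of the entry into the cycle, was named after its values were seen. It went from 81.7, 68.7 and 47.8 CPM to 34.5, 40.2 and 38 CPM (log2 fold change -0.82, adjusted p = 0.0359), and it was not called without sham replicate 1 or 2 or any BHB plus bIRI library, at -0.87 to -0.64. Of 23 listed matrix and fibrosis genes 19 rose and none fell (median 1.44), with 17 to 20 called higher across the alternatives. Matrix genes taken by symbol were more mixed. Of 32 collagens 15 rose and 4 fell, and of 11 laminins 4 rose and 4 fell. Mmp7, a matrix protease of injured epithelium, rose from 0.0745, 0 and 0.103 CPM to 2.84, 3.75 and 6.55 CPM (log2 fold change 6.18, adjusted p = 0.000373, 5.56 without sham replicate 2 and 6.81 without sham replicate 3). Of 12 fibroblast and pericyte markers 9 rose and none fell, though 2 fell without bIRI replicate 1 and 1 without bIRI replicate 3 or BHB plus bIRI replicate 3. Postn, periostin, was uneven, at 0.298, 0.320 and 0.594 CPM in sham and 3.92, 25.2 and 8.18 CPM in BHB plus bIRI (log2 fold change 4.94, adjusted p = 0.000615, and 3.90 without replicate 2). Col1a1, the main collagen of scars, was even, at 16.3, 14.9 and 17 CPM in sham and 103, 98.7 and 141 CPM in BHB plus bIRI (log2 fold change 2.83, SE 0.24, adjusted p = 3.76e-05).

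Factors that set the identity of tubular cells moved in both directions. Of 17 epithelial transcription factors 7 rose and 7 fell. Sox9, a factor of regenerating tubule, rose from 0.199, 0.114 and 0.207 CPM to 14.3, 11 and 16.8 CPM (log2 fold change 6.33, SE 0.65, adjusted p = 0.000111), and Klf5 rose from 1.86, 2.88 and 1.52 CPM to 30.8, 25.5 and 26.9 CPM (adjusted p = 1.75e-05). Hnf4g, a nuclear receptor of the proximal tubule, fell from 4.55, 3.11 and 1.40 CPM to 0.466, 0.172 and 0.163 CPM (log2 fold change -3.48, adjusted p = 0.00359, and -4.14 without BHB plus bIRI replicate 1). Of 14 claudins and junction genes 7 rose and 4 fell. Cldn4, a claudin of tight distal epithelia, rose from 19.7, 25.6 and 22.6 CPM to 280.0, 302 and 245 CPM, 12.2-fold (adjusted p = 4.84e-05), and Cldn2, the leaky claudin of the proximal tubule, fell from 572, 482 and 383 CPM to 107, 93.3 and 74 CPM, 5.25-fold (adjusted p = 0.000113). Of 11 EGF family ligands and receptors 4 rose and 2 fell, and 2 rose without sham replicate 3. Ereg, the ligand epiregulin, had 0 sham reads and 0.466, 0.646 and 0.435 CPM in BHB plus bIRI, at least 7.01-fold higher (adjusted p = 0.00442), while the receptor Erbb3 fell from 125, 135 and 102 CPM to 36.8, 43.7 and 37.4 CPM (adjusted p = 0.000175). Of 15 clock genes 2 rose and 8 fell, and the labels did not give the time of day of collection. The rises, of the activators Arntl and Clock, were named after their values were seen, at log2 fold changes of 0.78 and 0.61 (adjusted p = 0.0432 and 0.0139). Neither was called without sham replicate 1 or 2, nor Arntl without BHB plus bIRI replicate 2 or 3, at 0.59 to 0.82 for Arntl and 0.52 and 0.53 for Clock. Hlf, an output factor of the clock, fell from 114, 95.2 and 92.9 CPM to 21.4, 21.7 and 9.56 CPM (log2 fold change -2.52, adjusted p = 0.000285). Vegfa, which supports the capillaries, was at 103, 100.1 and 98.4 CPM in sham and 61.5, 66.1 and 46.8 CPM in BHB plus bIRI (log2 fold change -0.79, adjusted p = 0.0432). That call was lost on leaving out any sham or BHB plus bIRI library, with values from -0.89 to -0.65.

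**Figure D5:**
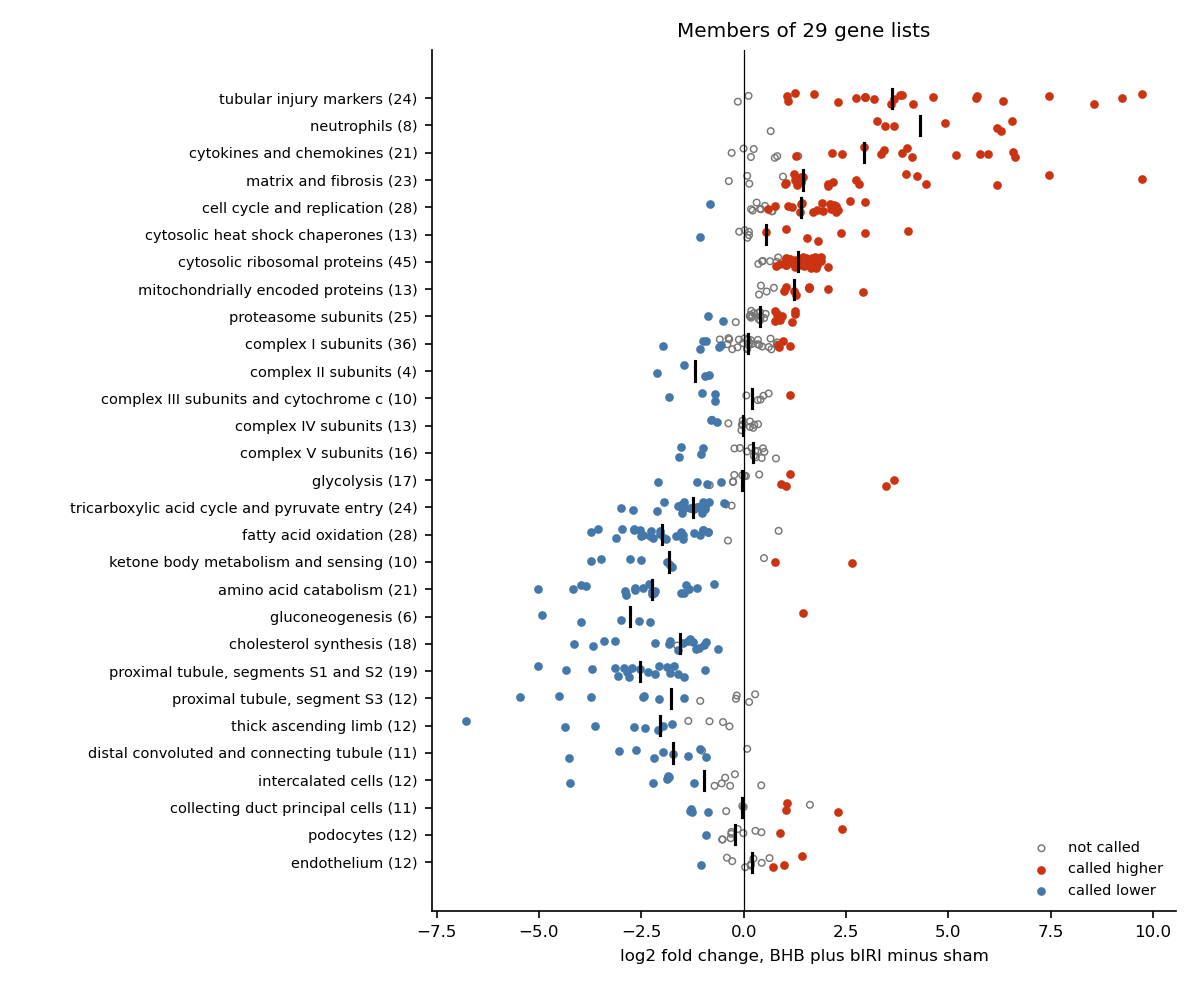
Each point is a tested gene of the list named at left, with the number tested in brackets, at its log2 fold change between BHB plus bIRI and sham (x axis). Filled points were called higher (red) or lower (blue), open points were not called, and black bars mark the list medians, which run from -2.77 for gluconeogenesis to 4.30 for neutrophils.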

How the data were processed

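Messenger RNA of mouse kidney was sequenced as read pairs, and the deposited files hold raw read counts per gene, 1 file a library. HISAT2, featureCounts from Subread, DESeq2 and mm10 are named in the submitters' processing notes, and their versions, the annotation used and whether counting used strand are not given in the sources used here. Without strand, reads of a gene and of an overlapping antisense gene cannot be told apart. Gene IDs were named from the GENCODE M21 annotation of GRCm38, which is the build of all coordinates.

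The counts were fitted in R 4.3.3 with edgeR 4.0.16 (TMM scaling, filterByExpr, robust quasi-likelihood test, Benjamini-Hochberg adjustment over 17967 genes). The fit held 8 libraries, because bIRI replicate 2 equalled the rounded-down mean of bIRI replicates 1 and 3 in 29678 of 29678 genes and was left out. All groups shared 1 estimate of the spread. Alternatives were DESeq2 1.42.0 and other scalings, filters, sets of libraries, a replicate block and a spline correction for transcript length and GC content. Replicate numbers did not show a pairing, though 3 libraries a group are too few to settle it. Deviations from the group means correlated at 0.0234, 0.0208 and 0.0675 between same-numbered sham and BHB plus bIRI libraries. Between libraries with different numbers the correlations were -0.0922 to 0.0795.

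List levels are means of log2(CPM + 0.5). A gene with 0 reads was compared with a floor of 3 reads per library, 0.0646 to 0.0815 CPM, and ratios for 1 to 3 reads have exact 95% intervals, which cover counting error only. The named genes were the 12 largest rises and 12 largest falls without overlap between groups and with a mean of at least 5 CPM in a group, up to 4 called members with the largest change in each list, and a fixed set. Others are marked where they appear. The members and gene lists were chosen with earlier results of these data known. The test was checked on simulated counts. Promoter windows came from RefSeq on GRCm38.p6. Some of the genes picked by the naming rule are not reported here.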

Additional observations from a re-analysis of the deposited data

How the results depend on the processing

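Leaving out 1 library in turn gave 5408 to 10308 called genes, with 2473 to 5220 higher and 2935 to 5164 lower. The lowest counts came without sham replicate 1 and the highest without a bIRI library. The fold requirement of 2 left 2585 genes called lower. DESeq2 called 4270 higher and 4369 lower, and the correction for length and GC content 4280 and 3991. The fit of the 6 libraries alone called 9984 genes, the same fit with the replicate block 9982 (5026 higher, 4956 lower), and the block with the length and GC correction 10383. Among the genes described, Umod (adjusted p = 0.0843), Hp (0.0921) and Cfd (0.328) were not called with the block, Slc16a1 (0.00836) and Il18 (0.0478) were, and 2 erythroid markers were called lower. Libraries with the same number did not all correlate best with each other, so the numbers do not show a pairing. Upper-quartile scaling moved the median by 0.097 and the share of higher calls from 48.9% to 55.6%. Of 244 called genes that the naming rule or the text picked, 63 lost the call in at least 1 alternative. That count takes in the fold requirement of 2, under which 24 genes lost the call because their change was under 2-fold. Cfd reversed, at -0.093 without BHB plus bIRI replicate 2 (leaving out 1 library gave -0.093 to 6.49). Igfbp7, not called with all libraries, reversed to -0.38 with the block and the length and GC correction. Apart from the fold requirement, the cause of these changes was not tested. The fitted log2 fold changes of genes with few sham reads also moved when 1 sham library was left out, such as Saa3 from 7.57 to 10.31 without replicate 3 and Il6 from 5.98 to 8.70 without replicate 1. Low counts limit the cytokine list, where Il6 and Csf3 had 2 and 1 reads in all sham libraries.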

Other observations

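Gene families grouped by symbol were counted after the list results were known. Of 289 solute carrier genes, taken by symbol whatever the membrane or cell type of the carrier, 148 were called lower and 38 higher (median log2 fold change -0.78). Of 14 UDP-glucuronosyltransferases, which conjugate drugs and bilirubin, 10 fell and none rose (median -2.70), and of 15 acyl-CoA synthetases 11 fell and 3 rose (median -2.44). Aldehyde dehydrogenases had 12 lower and 4 higher of 20, glutathione S-transferases 11 and 5 of 21, and subunits of the proton pump V-ATPase 10 and 1 of 21. Families with near-identical members, such as the glucuronosyltransferases, may share reads.

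Some families of the cytoskeleton and surface were higher. Among other surface families, 21 of 42 ABC transporters fell and 3 rose, and 12 of 57 potassium channels fell and 4 rose. Of 19 keratins 15 rose and none fell (median 3.91), all 10 S100 calcium-binding proteins rose (median 4.67), and of 14 tubulins 11 rose and none fell (median 2.02). Of 12 annexins 8 rose and 1 fell, of 19 integrins 10 rose and 2 fell, and of 17 TNF receptor family genes 9 rose and 1 fell. Families of splicing and translation had smaller medians. Of 30 SR and hnRNP splicing factors 16 rose and 3 fell (median 0.63). Of 54 genes with the Eif symbol of translation initiation, which takes in regulators such as Eif2ak2 and Eif4ebp1, 19 rose and 8 fell (median 0.36).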
